A study of Mus musculus with 4 samples.

Results

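The receptors for tumour necrosis factor (TNF) and the core components of the NF-kB transcription factor system were examined in liver RNA. The set comprised 10 genes, Tnfrsf1a, Tnfrsf1b, Nfkb1, Nfkb2, Rela, Relb, Nfkbia, Tnfaip3, Birc3 and Traf2, picked by symbol from the 24138 rows of the deposited expression table. Each symbol matched a single row. The samples came from 4 male mice of the C57BL/6J strain, 18 weeks old, 1 liver each. The animals had been fed the FAT-MASH diet, a model of metabolic dysfunction-associated steatohepatitis (MASH), and treated with resolvin D1 (RvD1), a lipid mediator of the resolution of inflammation. All 4 livers carried both the diet and the treatment and form a single group, so no effect of either could be measured and every value below describes treated animals. The labels number the livers 1 to 4 and give no dose, no duration and no diet-only or untreated group. Values are in FPKM, fragment numbers divided by transcript length and by library depth, so levels of different genes can be compared.

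TNF is a cytokine made largely by immune cells, and in liver it acts on hepatocytes and on the cells of the sinusoid. It binds 2 receptors: the product of Tnfrsf1a is found on most cell types and carries a death domain, whereas the product of Tnfrsf1b is found mainly on immune and endothelial cells. The bound receptors gather adaptors that include TRAF2 and the ubiquitin ligase cIAP2, the product of Birc3, and these lead to activation of the IkB kinases. In the canonical branch the kinases trigger degradation of IkB alpha, the product of Nfkbia, which releases dimers of RelA and p50 to the nucleus. In the non-canonical branch the Nfkb2 product p100 is processed to p52, which pairs with RelB. NF-kB itself induces Nfkbia and Tnfaip3, which encodes the ubiquitin-editing inhibitor A20, and so limits its own activity in hepatocytes and other cells.

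Estimated depth was between 18.8 and 20.1 M fragments (M, mega) per liver, by a method that limited the possible values in advance. The tissue label was checked against hepatocyte markers, of which Apoa1 had a mean of 12970 FPKM and Ttr 5394 FPKM, while Alb was listed at 0 in all 4 livers. A listed 0 can be a failed estimate in this table, but none of the 10 genes had a 0. Liver 2 was the highest in acute phase transcripts, whose 10 listed genes summed to 17597 FPKM against 6546 to 9236 FPKM in the other livers. It also had the highest sums of macrophage and Kupffer cell markers (9 genes; 294 FPKM, against 189 to 274 FPKM) and of neutrophil markers (5 genes; 18.7 FPKM, against 8.33 to 11.6 FPKM). None of the macrophage and neutrophil markers in the table was at 0 in all livers, and the neutrophil marker Ly6g is not analysed here. In bulk RNA, fewer cells of a type and less RNA per cell cannot be told apart.

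Promoters of Nfkb2, Nfkbia and Tnfaip3 are shown first, picked because a match to the NF-kB consensus sequence was found in them. RefSeq start sites on GRCm38.p6, the build the submitters name as mm10, were found for 8 of the 10 genes, with 11 promoters in all. The 250 bases before each start were searched on both strands for the NF-kB consensus decamer, and overlapping matches were counted by position. At least 1 match was present for 3 of the 8 genes, Nfkb2, Nfkbia and Tnfaip3, and for 8.23% of all 27025 genes in the same table. Capitals mark the matches in the sequences below, which run 5′ to 3′ on the strand of the gene. Those of Nfkbia and Tnfaip3 cover the 130 bases before the start.
Nfkb2, chr19:46304698-46304725, plus strand: GGGAATTCCCCccctcggggggccgaaa
Nfkbia, chr12:55492648-55492777, minus strand: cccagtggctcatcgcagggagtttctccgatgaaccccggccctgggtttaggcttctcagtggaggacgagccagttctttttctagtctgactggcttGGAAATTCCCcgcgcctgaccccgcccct
Tnfaip3, chr10:19015411-19015540, minus strand: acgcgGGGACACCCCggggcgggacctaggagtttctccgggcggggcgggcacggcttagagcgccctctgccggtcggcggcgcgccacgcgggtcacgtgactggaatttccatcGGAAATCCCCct

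Nfkb2 and Tnfaip3 have several annotated starts, and the most upstream promoter of each in the table is shown. The other promoter of Tnfaip3 held 0 matches, and each other promoter of Nfkb2 held 1. RefSeq places the Nfkb2 gene from 46300994, upstream of the promoter shown, and bases before that position were not searched. A GENCODE exon overlaps the Nfkb2 promoter shown. The Nfkb2 stretch covers bases 39 to 12 before the start and holds 2 overlapping matches, and a further match, not printed, lies 11 to 2 bases before it. In Nfkbia the single match lies 29 to 20 bases before the start. In Tnfaip3 the matches lie 125 to 116 and 12 to 3 bases before the start. The promoters of Tnfrsf1a, Tnfrsf1b, Rela, Birc3 and Traf2 held no match to these letters in this window. A match describes the sequence, and binding was not measured.

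All 10 genes were expressed, defined as averaging 1 FPKM or more, a level reached by 43.7% of all rows. Their means spanned a 23.4-fold range, from 35.5 FPKM for Tnfrsf1a to 1.52 FPKM for Tnfaip3. In descending order they were Tnfrsf1a, Nfkbia, Rela, Tnfrsf1b, Nfkb1, Birc3, Nfkb2, Traf2, Relb and Tnfaip3. Of the 9 neighbouring pairs in this order, 3 had ranges over the livers that overlapped: Tnfrsf1a and Nfkbia, Nfkb1 and Birc3, and Birc3 and Nfkb2. The other 6 pairs did not overlap. With 4 livers a two-sided exact sign-flip test cannot give a p below 0.125, so none was run.

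**Figure D1:**
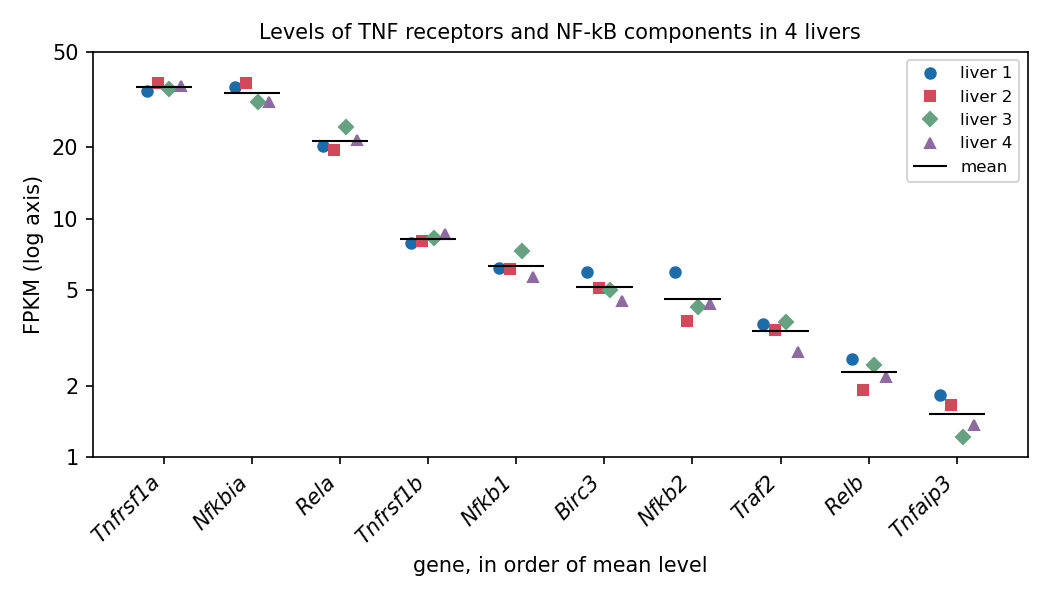
Level of each gene in FPKM (log axis) in livers 1 to 4 (symbols), with the mean of the 4 livers as a line, in order of mean. Tnfrsf1a, Nfkbia and Rela lie between 19.3 and 37.0 FPKM, above the other 7 genes, which lie between 1.22 and 8.58 FPKM.

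The receptors were the steadiest of the 10 genes. Tnfrsf1a (XLOC_017553, chromosome 6, 125349723 to 125362483) was at 34.3, 37.0, 35.0 and 35.9 FPKM in livers 1 to 4. Its mean was 35.5 ± 1.17 FPKM (SD, n = 4), and the highest liver exceeded the lowest 1.08-fold. Tnfrsf1b (XLOC_015540, chromosome 4, 145212368 to 145246870) was at 7.91, 8.06, 8.32 and 8.58 FPKM, with a mean of 8.22 ± 0.291 FPKM (SD, n = 4). No liver was clearly high or low for either receptor.

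On the scale of log2(FPKM + 1) the SD between livers was 0.05 for both receptors. Of the 10541 expressed genes of the table, 2.48% had an SD at or below that of Tnfrsf1a and 2.41% at or below that of Tnfrsf1b. About 1324 to 1398 fragments per liver stood behind Tnfrsf1a and 564 to 588 behind Tnfrsf1b, as estimated from depth and transcript length. Counting that many fragments would alone give a coefficient of variation of about 2.72% and 4.16%, and the observed values were 3.30% and 3.55%. These SDs moved with the scaling of the libraries, to 0.07 for Tnfrsf1a when each library was rescaled to a common sum and to 0.02 for Tnfrsf1b with upper-quartile scaling. Both receptors had the lowest SDs of the 10 genes as deposited and under each of the 3 other scalings.

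The receptors also kept a steady ratio within each liver. Tnfrsf1a exceeded Tnfrsf1b 4.33-, 4.59-, 4.21- and 4.19-fold in livers 1 to 4, with a mean log2 ratio of 2.11 ± 0.06 (SD, n = 4). Markers of macrophages, a cell type in which Tnfrsf1b is known to be expressed, varied more over the same livers, with a median SD of 0.28 on the log2(FPKM + 1) scale over 8 expressed markers. As deposited, 4 of these 8 markers were highest in liver 2 and 4 in liver 4, and with the common sum 6 and 2. Tnfrsf1b was highest in liver 4 as deposited, but highest in liver 3 with upper-quartile scaling and, with the common sum, highest in liver 3 and lowest in liver 4. The part of macrophages in its level was not tested. The marker with the highest mean, C1qb, a complement component of tissue macrophages, was at 68.6, 98.6, 65.0 and 82.5 FPKM.

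Among the receptor-associated proteins, Birc3 (XLOC_022361, chromosome 9, 7848701 to 7873170) was at 5.95, 5.13, 5.01 and 4.51 FPKM in livers 1 to 4, a mean of 5.15 ± 0.598 FPKM (SD, n = 4). Traf2 (XLOC_012154, chromosome 2, 25517982 to 25546940), which encodes the adaptor that brings cIAP proteins to the receptors, was at 3.63, 3.41, 3.69 and 2.78 FPKM, a mean of 3.38 ± 0.418 FPKM (SD, n = 4). Both genes were lowest in liver 4. Birc3 was highest in liver 1, whereas livers 1 and 3 were nearly level for Traf2. The ratio of Birc3 to Traf2 was between 1.36 and 1.64 over the livers, a mean log2 ratio of 0.61 ± 0.13 (SD, n = 4).

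The canonical subunits were both highest in liver 3. Rela (XLOC_010290, chromosome 19, 5637490 to 5648130), which encodes the subunit with the main transactivation domain, was at 20.02, 19.3, 24.1 and 21.3 FPKM in livers 1 to 4. Its mean was 21.2 ± 2.13 FPKM (SD, n = 4). Nfkb1 (XLOC_014134, chromosome 3, 135584655 to 135691547), which encodes the precursor p105 of p50, was at 6.20, 6.17, 7.28 and 5.72 FPKM, a mean of 6.34 ± 0.664 FPKM (SD, n = 4). The other livers lay within 19.3 to 21.3 FPKM for Rela and within 5.72 to 6.20 FPKM for Nfkb1, and their ranges did not reach liver 3.

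The non-canonical subunits were both highest in liver 1 and lowest in liver 2. Nfkb2 (XLOC_010574, chromosome 19, 46304737 to 46327156) was at 6.00, 3.73, 4.26 and 4.37 FPKM in livers 1 to 4. Its mean was 4.59 ± 0.979 FPKM (SD, n = 4), and the 1.61-fold range was the widest of the 10 genes. Relb (XLOC_019504, chromosome 7, 19606222 to 19629438) was at 2.58, 1.91, 2.43 and 2.18 FPKM, a mean of 2.27 ± 0.295 FPKM (SD, n = 4).

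Liver 1 was high for Nfkb2, while livers 2 to 4 lay within 3.73 to 4.37 FPKM. The coefficient of variation of Nfkb2 was 21.3% against about 5.63% from counting an estimated 263 to 440 fragments, 3.78 times as large. For Relb, which rested on about 74 to 104 fragments, the observed 12.96% was 1.21 times the counting value of 10.7%. Exons of Nfkb2 overlap those of Psd on the opposite strand over 299 bases and those of AC114539.1 over 531 bases, and whether the counting used strand is not given in the sources used here. Psd, which shares the deposited span of Nfkb2, was at 0.128 to 0.182 FPKM, and AC114539.1 was not analysed here. RefSeq places Nfkb2 at 46300994 to 46312400, so the deposited span both starts and ends further along the chromosome.

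Within each liver, the non-canonical subunits were scarcer than their canonical counterparts. The ratio of Nfkb2 to Nfkb1 was 0.967, 0.606, 0.585 and 0.765 in livers 1 to 4, a mean log2 ratio of -0.48 ± 0.34 (SD, n = 4). Liver 1 was close to parity, and the other livers were lower. The ratio of Relb to Rela was 0.129, 0.0987, 0.101 and 0.102, a mean log2 ratio of -3.23 ± 0.18 (SD, n = 4), again with liver 1 the highest.

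The inhibitors differed widely in level. Nfkbia (XLOC_004834, chromosome 12), the most abundant inhibitor of the set, was at 35.4, 36.8, 30.8 and 30.7 FPKM in livers 1 to 4, a mean of 33.4 ± 3.12 FPKM (SD, n = 4). Livers 1 and 2 lay above livers 3 and 4. Its deposited span, 55280814 to 55492647, also holds 4 other rows of the table, whereas RefSeq places the gene at 55489409 to 55492647. Tnfaip3 (XLOC_001958, chromosome 10, 19000910 to 19015410) was at 1.83, 1.66, 1.22 and 1.37 FPKM, a mean of 1.52 ± 0.278 FPKM (SD, n = 4). It was likewise higher in livers 1 and 2 than in livers 3 and 4, a split seen after the values were known and not tested.

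Tnfaip3 varied by 18.3% between livers against about 9.08% from counting an estimated 100 to 156 fragments. The ratio of Tnfaip3 to Nfkbia was 0.0519, 0.0450, 0.0395 and 0.0446 in livers 1 to 4, a mean log2 ratio of -4.47 ± 0.16 (SD, n = 4). Nfkbia exceeded Rela, the subunit that its product retains in the cytoplasm, 1.77-, 1.90-, 1.28- and 1.44-fold. The mean log2 ratio of this pair was 0.66 ± 0.27 (SD, n = 4). Liver 3 had the lowest ratio, with the highest Rela and an Nfkbia level nearly equal to that of liver 4, the lowest.

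**Figure D2:**
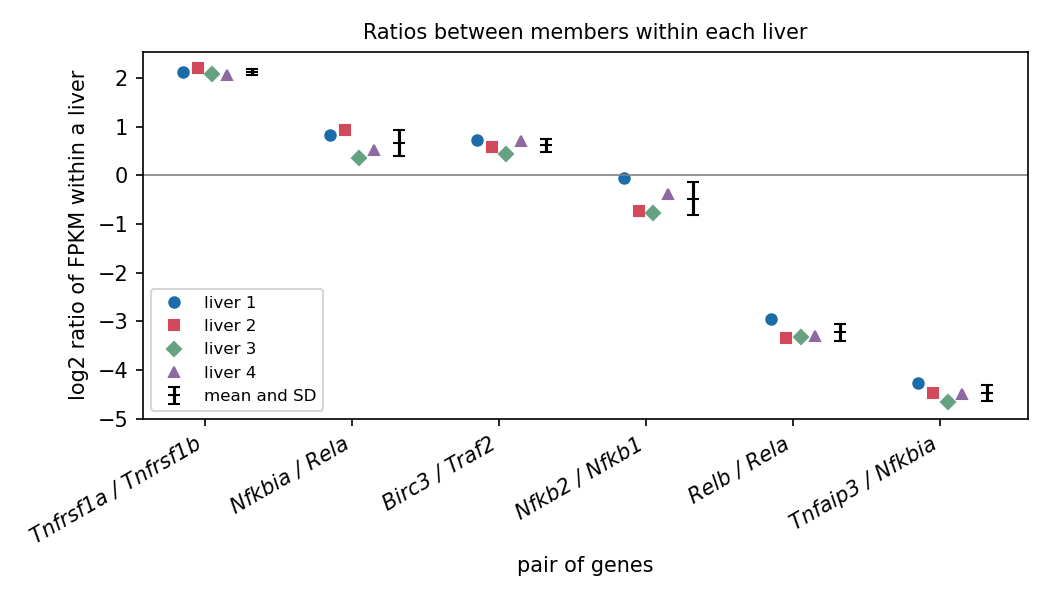
Log2 ratio of FPKM between pairs of the 10 genes within each liver (symbols), with the mean and SD over 4 livers as a bar. The ratio of the receptors differs by 1.09-fold over the livers, and that of Nfkb2 to Nfkb1 by 1.65-fold, with liver 1 the highest.

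As deposited, the spread of the 10 genes between livers was mostly below the median of expressed genes. Their median SD on the log2(FPKM + 1) scale was 0.13, with a range from 0.05 to 0.24, against a median of 0.16 over all 10541 expressed genes. The difference was not present with libraries rescaled to a common sum (0.179 against 0.176). It was small with upper-quartile scaling (0.152 against 0.158), without liver 3 (0.131 against 0.139) and without liver 2 (0.142 against 0.151). With no minimum level it turned, to 0.13 against 0.09, since all genes then include those at or near 0. As deposited the SD was below the median of expressed genes in 9 of the 10 genes, with Nfkb2 the exception at 0.24. It was below it in 8 genes with median-ratio scaling, in 6 with upper-quartile scaling and in 5 with the common sum, or 3 where the minimum level was applied before rescaling. For Rela, Nfkbia, Nfkb1, Birc3 and Traf2 the coefficient of variation was 10.02%, 9.34%, 10.5%, 11.6% and 12.4%, in that order. These values were 3.22, 2.78, 2.29, 1.81 and 1.68 times those from counting alone at the estimated depth. As deposited, no gene of the set had a liver standing apart by Dixon's ratio, the gap of an extreme liver divided by the range, at the 95% level, whereas with the common sum Rela did, in liver 3. The same rule marked 5.46% of all expressed genes as deposited.

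**Figure D3:**
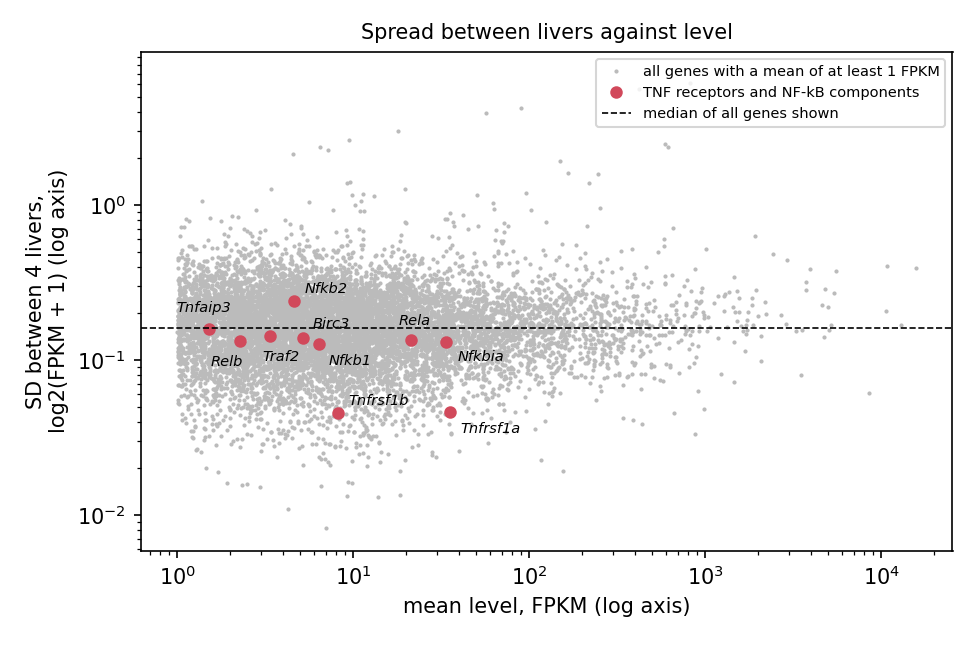
SD between the 4 livers on the log2(FPKM + 1) scale (log axis) against mean level in FPKM (log axis) for all 10541 expressed genes (grey) and the 10 genes (red), with the median of all genes as a dashed line. Tnfrsf1a and Tnfrsf1b lie near the lower edge at 0.05, and Nfkb2 lies above the line at 0.24.

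As deposited, no single liver was the highest or the lowest for all 10 genes. Liver 1 was highest for 4 genes, liver 2 for 2, liver 3 for 3 and liver 4 for 1. Over all expressed genes these shares were 17.9%, 22.0%, 26.8% and 33.3%. Liver 1 was lowest for 2 genes, liver 2 for 3, liver 3 for 1 and liver 4 for 4, against 20.7%, 29.9%, 31.4% and 18.1% of all expressed genes.

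The median deviation of the set from the gene means was 0.09, -0.01, -0.00260 and -0.06 for livers 1 to 4 on the log2(FPKM + 1) scale. Over all expressed genes the medians were -0.00936, -0.02, -0.01 and 0.04. Genes above their own mean numbered 6, 4, 5 and 3 in livers 1 to 4, against 47.2%, 45.1%, 47.0% and 60.8% of all expressed genes. The medians in livers 2 and 3, near 0, turned above 0 under each of 3 other scalings of the libraries. With libraries rescaled to a common sum they were 0.01 and 0.04, with 6 and 7 of 10 genes above their mean, against 0.01 and 0.03 over all expressed genes. The count in liver 4 also depended on the scaling. With median-ratio scaling 1 of the 10 genes was above its mean in liver 4 (median -0.08, against 0.02 over all expressed genes), and with upper-quartile scaling likewise 1 (-0.10, against -0.00394). With the common sum 0 of 10 were above it (-0.15, against -0.05 over all expressed genes), so part of that shift was shared by all genes. The median in liver 1 was 0.03 without liver 4 and -0.04 over the 6 genes of at least 5 FPKM, and that in liver 4 was -0.02 without liver 1. The 6 hepatocyte markers, all above their own mean in liver 4, summed to 32631 FPKM there against 23764 to 25942 FPKM in the other livers as deposited. With the common sum 3 of the 6 were above their mean in liver 4, and their part in the values of liver 4 was not tested. Liver 2, which held the highest acute phase and macrophage sums, was the highest liver for Nfkbia and Tnfrsf1a and the lowest for Rela, Nfkb2 and Relb, and the part of those transcripts in these values was not tested.

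**Figure D4:**
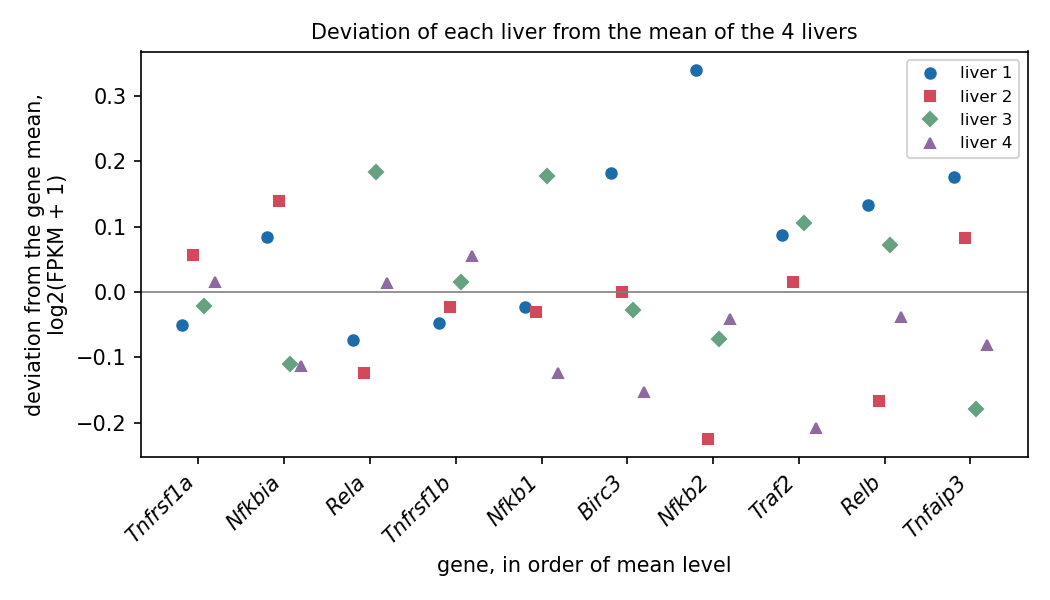
Deviation of each liver (symbols) from the mean of the 4 livers for each of the 10 genes, on the log2(FPKM + 1) scale. Liver 1 reaches 0.34 for Nfkb2, liver 3 reaches 0.18 for both Rela and Nfkb1, and liver 4 is lowest for Nfkbia, Nfkb1, Birc3 and Traf2.

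The genes whose profile over the 4 livers was most like that of Nfkb2, the most variable of the set, were sought among the 6538 genes that averaged 5 FPKM or more. Likeness was the root mean square difference of the deviations on the log2(FPKM + 1) scale, over 4 livers. The closest were Arpc3 (0.02), a subunit of the actin-nucleating Arp2/3 complex, Safb (0.03), a nuclear scaffold attachment factor, and Hook2 (0.04), a linker to microtubules. Arpc3 was at 113, 78.3, 87.9 and 90.3 FPKM in livers 1 to 4. The minimum level left Relb, Traf2 and Tnfaip3 out of this search, and with 4 livers such likeness is a description.

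The ligands of the TNF receptors, Tnf and Lta, were scarce next to Tnfrsf1a and Tnfrsf1b. Of 17 listed genes of the TNF ligand superfamily, 16 were in the table, 3 were expressed, with a median SD of 0.19, and 5 were at 0 in all livers. Tnf was at 0.210, 0.129, 0.217 and 0.215 FPKM in livers 1 to 4, and Lta, the other ligand of both receptors, at 0.0309, 0, 0.0669 and 0 FPKM. Both rest on few fragments. The family member with the highest mean was Tnfsf12, which encodes TWEAK, at 12.2, 12.1, 16.2 and 16.1 FPKM, above Tnfrsf1b in every liver. Ltb, a subunit of lymphotoxin, followed with 2.01 ± 0.409 FPKM and Tnfsf10, which encodes TRAIL, with 1.24 ± 0.143 FPKM (each SD, n = 4).

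Of 21 other receptors of the family, all were in the table and 7 were expressed, with a median SD of 0.21. Ltbr, the lymphotoxin beta receptor that feeds the non-canonical branch, was at 51.4, 46.6, 60.8 and 57.5 FPKM, above Tnfrsf1a in every liver. Fas, a death receptor, had 9.91 ± 1.64 FPKM and Tnfrsf12a, the receptor of TWEAK, 7.88 ± 0.774 FPKM (each SD, n = 4). The expressed receptors with the largest SD on the log2(FPKM + 1) scale were Tnfrsf19 (0.24, at 3.45 ± 0.713 FPKM) and the death receptor family member Tnfrsf21 (0.22, at 2.28 ± 0.502 FPKM; each SD, n = 4).

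**Figure D5:**
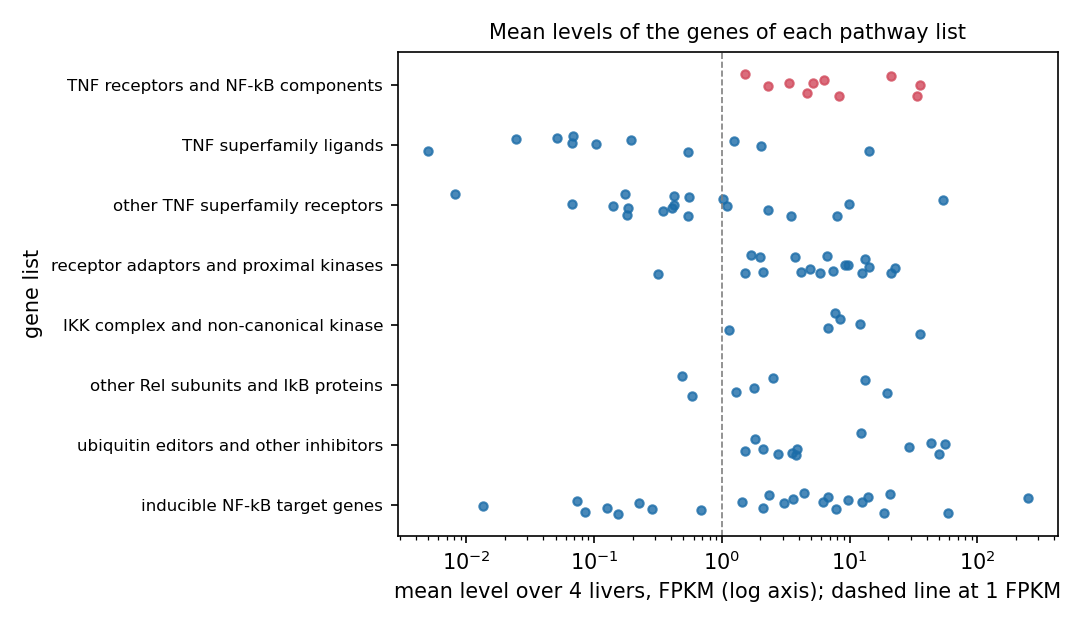
Mean level over 4 livers in FPKM (log axis) of each gene with a mean above 0 in the 10-gene set (red) and in the lists of other pathway genes (blue), with 1 FPKM as a dashed line. Ligands fall mostly below the line, with 3 of the 11 plotted at or above it. Above it are 17 of 18 genes of the list of adaptors and proximal kinases and 6 of 6 genes of the IKK list.

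The machinery between receptors and NF-kB was present in each liver. Of 18 adaptors and proximal kinases 17 were expressed, with a median SD of 0.14. Rbck1 and Sharpin, subunits of the linear ubiquitin ligase, had 22.8 ± 3.42 and 21.2 ± 1.49 FPKM, and Tab2, a partner of the kinase TAK1, had 14.3 ± 1.86 FPKM (each SD, n = 4). Tab1, another TAK1 partner, had the largest SD of this list (0.23), at 1.80, 1.31, 2.26 and 1.36 FPKM. Birc2, the paralogue that lies next to Birc3 and was singled out after its values were seen, was at 6.51, 5.68, 5.72 and 5.60 FPKM. Both paralogues were thus highest in liver 1, and how reads shared by the 2 were assigned is not given in the sources used here.

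All 6 genes of the IKK list were expressed, with a median SD of 0.11, below the 0.13 of the 10 genes. Chuk, which encodes IKK alpha, was at 32.6, 35.2, 29.98 and 45.5 FPKM in livers 1 to 4, with liver 4 the highest. Ikbkb, which encodes IKK beta, had 12.0 ± 0.686 FPKM and Ikbke 8.44 ± 1.80 FPKM (each SD, n = 4).

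Of 7 further Rel and IkB genes 5 were expressed, with a median SD of 0.21. Nfkbib, which encodes IkB beta, was at 18.1, 14.9, 24.8 and 19.9 FPKM, and Bcl3, an atypical IkB protein that binds p50 and p52, at 8.67, 10.4, 18.5 and 15.6 FPKM. Liver 3 was the highest for Nfkbib and Bcl3, as it was for Rela and Nfkb1. Bcl3 ranged 2.14-fold, wider than any of the 10 genes. Nfkbiz, another atypical IkB protein, had 2.52 ± 0.484 FPKM (SD, n = 4).

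All 12 other inhibitors and ubiquitin editors were expressed, with a median SD of 0.16. The most abundant were Rnf11 (56.2 ± 8.04 FPKM) and Tax1bp1 (50.2 ± 4.33 FPKM), partners of A20, and Commd1 (43.3 ± 5.97 FPKM), which limits RelA (each SD, n = 4). Each exceeded Tnfaip3 itself in every liver. Pdlim2, a ligase acting on RelA, and Zc3h12a, an endoribonuclease that degrades inflammatory mRNAs, had the largest SDs of this list, 0.25 in both.

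Of 26 inducible NF-kB target genes 16 were expressed, with a median SD of 0.31, above that of the 10 genes and of all expressed genes. Lcn2, a siderophore-binding acute phase protein, was at 114, 714, 55.4 and 103 FPKM, and Saa3 at 19.0, 25.6, 12.2 and 25.3 FPKM in livers 1 to 4. Sod2, a mitochondrial superoxide dismutase, had 58.8 ± 5.52 FPKM (SD, n = 4). Of the 16 genes 9 were lowest in liver 3, against 31.4% of all expressed genes, and 2 were above their own mean there. Tnfaip3 was likewise lowest in liver 3, as were 7 of the 8 expressed macrophage markers. The acute phase list, which shares Lcn2 with the targets, had 9 of 10 genes lowest in liver 3. Its median deviation there was -0.73 on the log2(FPKM + 1) scale. The lists parted in other livers as deposited. In liver 1, 9 of 16 targets were above their own mean, but 0 of 8 macrophage markers and 0 of 10 acute phase genes. In liver 4 these counts were 12 of 16, 7 of 8 and 3 of 10. Over all expressed genes the shares above their own mean were 47.2% in liver 1 and 60.8% in liver 4. The part of either list in the levels of the targets was not tested.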

How the data were processed

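Poly(A)-enriched RNA of 4 livers was sequenced. The authors' deposited table holds 1 column of FPKM per liver. The unit is not named in its header and was taken from the values and from the tools. Per the submitters' processing notes these were FastQC 0.10.1, Trim Galore 0.6.3, cutadapt, STAR 2.7.6a and Cufflinks 2.2.1, with build mm10; the annotation is not given in the sources used here. Columns were matched to livers through the sample descriptions, and 0 value columns were left unmatched. Deposited starts were raised by 1.

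From these FPKM values, means, SDs and log2(FPKM + 1) were computed with numpy 2.4.6 and pandas 2.3.3. No read counts are held in such a table. Depth was estimated from the lowest values of single-transcript genes over 800 bases in GENCODE vM21, subtracting 200 bases from each length. Only genes whose product of FPKM and remaining bases lay between 25 and 75 were used, and their median gave the depth. This window confined the estimate to a limited range in advance, so the likeness of depth between livers was partly set by it. Fragment numbers and counting values from it are approximate and cover counting error only. Procedures were tested on simulated data.

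The 10 genes, the gene lists and the measures were chosen with earlier results of these data known. Named genes were the 10, the 3 highest and the 2 most variable expressed genes of each pathway list, Tnf and Lta, the highest gene of each marker list and the 3 genes most like Nfkb2. With 1 group no comparison between groups was tested, and Dixon's ratio was used to mark genes with a liver standing apart. The labels number the livers and say nothing of cages or cohorts, so the spread may be in part technical. Alternatives were other pseudocounts, minima and scalings, and leaving out each liver.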

Additional observations from a re-analysis of the deposited data

Results flagged for a closer look

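The expressed genes of the pathway lists, Tnf, Lta and the highest gene of each marker list, 88 genes in all, were examined, and 4 had 1 liver far from the other 3 by Dixon's ratio at the 95% level, where chance flags about 5% of genes. Tnf was low in liver 2, at 0.129 FPKM, where the other livers lay at 0.210 to 0.217 FPKM. Birc2, the paralogue of Birc3, was high in liver 1, at 6.51 FPKM, with the others at 5.60 to 5.72 FPKM. Ccl5, a chemokine that attracts T cells and an NF-kB target, was low in liver 3, at 5.42 FPKM, with the others at 10.9 to 11.3 FPKM. Apoa1, a hepatocyte marker, was high in liver 4, at 15343 FPKM, with the others at 11922 to 12319.9 FPKM. The other expressed marker genes were outside the 88, and 2 of them, picked after their values were seen, passed the same limit: Sox9, a cholangiocyte marker, was at 3.37 FPKM in liver 4, below 4.88 to 5.22 FPKM elsewhere, and Orm1, an acute phase gene, was at 1631 FPKM in liver 2, above 758 to 812 FPKM elsewhere. None of these was among the 10 genes of the set.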

How the results depend on the processing

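Of 116 recomputed values, 109 moved by less than a set tolerance or stayed within 1.5 times the count. The tolerance was the SD between livers for a log2 ratio and the SD between the 10 genes for the median SD. For a median deviation it was the median SD of the genes, 0.13. That exceeded the size of each median deviation, so even values that changed sign passed. The 109 therefore does not show that the median deviations were steady. With a minimum mean of 5 FPKM, 6 of the 10 genes remained above the minimum. Rescaling the libraries to a common sum gave 1 gene with a liver standing apart, Rela in liver 3. A pseudocount of 5 FPKM lowered the size of all 6 log2 ratios, by its construction. It did so by more than the SD between livers in 4 of them, to 1.62 for Tnfrsf1a to Tnfrsf1b, to -1.85 for Relb to Rela, to 0.28 for Birc3 to Traf2 and to -2.56 for Tnfaip3 to Nfkbia, and by less in Nfkb2 to Nfkb1 (-0.25) and Nfkbia to Rela (0.55). The order of the 10 genes by mean was the same under the 3 other scalings and without each liver, the alternatives that could change it. The median deviation changed sign in 12 of its recomputed values, all of them in livers 1, 2 and 3. Leaving out each liver in turn gave between 1 and 3 overlapping neighbours in that order, with 1 when liver 1 was left out, and a median SD between 0.12 and 0.14 (0.14 without liver 2). The same alternatives gave median deviations from 0.03 to 0.08 in liver 1, -0.05 to 0.00635 in liver 2, 0.00282 to 0.04 in liver 3 and -0.08 to -0.02 in liver 4. With a minimum of 5 FPKM the median in liver 1 was -0.04, since 4 genes were then left out. With libraries rescaled to a common sum the median SD was 0.179, against 0.176 over all expressed genes. That rescaling also raised all values, so the pseudocount weighed less. The target and marker lists were recomputed under the 3 scalings after their values were seen: 9 to 10 of 16 targets, 7 of 8 macrophage markers and 8 to 10 of 10 acute phase genes were lowest in liver 3, and 3 to 5 of 6 hepatocyte markers were above their mean in liver 4. No paired analysis was possible because there is a single group, so that no other group shares its replicate numbers. The estimated depth limits values of Tnf, Lta and other genes below about 1 FPKM, which rest on few fragments.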

Other observations

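Sums of the marker lists that the report does not describe were as follows in FPKM over the 4 livers. T and NK cell markers (6 genes, led by Nkg7 at a mean of 1.19) summed to between 1.94 and 3.47, and B cell and plasma cell markers (5 genes, led by Cd79a at 1.15) to between 2.53 and 4.13. Sinusoidal endothelial markers (6 genes, led by Clec4g at 29.3) summed to between 45.1 and 60.9, with the highest value in liver 2. Stellate cell and fibroblast markers (6 genes, led by Dcn at 148) summed to between 166 and 259, likewise highest in liver 2. Cholangiocyte markers (5 genes, led by Spp1 at 191) summed to between 192 and 233, and erythroid markers (2 of 4 genes in the table, led by Hba-a1 at 580) to between 372 and 870. For 1 of the erythroid genes there was more than 1 row, and only the row with the highest mean entered the sum.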
